A study of Mus musculus with 18 samples.

Results

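Male germ cells make many mRNAs before the encoded proteins are needed and keep them in ribonucleoprotein particles (RNPs), the light, untranslated part of the cytoplasm, apart from the polysomes that carry translated mRNA. As the round nucleus of a spermatid condenses and elongates, transcription stops, and mRNAs for the protamines, the tail and the acrosome are drawn from this store. Y-box proteins such as YBX2 coat stored mRNAs in the mouse testis. The RNA of elongating spermatid RNPs was compared here with the RNA of round spermatid RNPs, to see which mRNAs the store holds at each stage.

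The comparison used 6 of 18 libraries, 3 of elongating RNPs and 3 of round RNPs, chosen by their labels. Both groups came from testes of adult wild-type C57BL/6 mice, on the C57BL/6 J background per the methods. No group carried a treatment or mutation, and cells of both groups were purified and fractionated in cycloheximide. The other 12 libraries held pachytene RNPs and the polysomes of the 3 cell types. According to the methods, several testes were pooled for a purification, the fraction called elongating also held elongated spermatids, and its purity by morphology was the lowest of the 3 cell types. The sources do not say which libraries came from separate purifications, so p-values measure the spread between these libraries, which may be technical. In such bulk samples, fewer cells of a type and less RNA per cell cannot be told apart.

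Values are FPKM (fragments per length of transcript, scaled to the fragments mapped in the library) summed over the spliced transcripts assembled for a gene and scaled between libraries. A gene listed at 0 had no matching transcript assembled in that library, and its RNA may still have been present. Read counts are not in these values. The elongating RNP libraries held 34238 to 50480 assembled transcripts, and the round RNP libraries held 36930 to 42278. The coverage per unit of FPKM, which grows with depth and read length, was 1.71 to 2.26 in elongating RNPs and 1.64 to 1.80 in round RNPs.

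Round RNP library 2 stood apart from the other 5 libraries. Across genes, which are not independent replicates, its Pearson's r was 0.429 to 0.465 with the elongating RNP libraries and 0.475 and 0.574 with the other round RNP libraries. Elongating RNP libraries had an r of 0.844 to 0.851 among themselves, and round RNP libraries 1 and 3 had 0.839 with each other. Round RNP 1 had an r of 0.860 with elongating RNP 3, higher than with either library of its own group. For this reason the counts of called genes and the list medians are given with and without round RNP 2.

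The labels were set against cell type markers fixed with the lists. The 21 elongating spermatid markers summed to 53346, 21896 and 19886 FPKM in elongating RNPs, against 9226, 537 and 6634 FPKM in round RNPs. The 14 round spermatid markers summed to 2674, 2668 and 2674 FPKM in elongating RNPs, against 2227, 293 and 1781 FPKM in round RNPs. Both sets were lowest in round RNP 2, and neither set was higher in round than in elongating RNPs. The 12 spermatocyte markers summed to 860, 809 and 731 FPKM in elongating RNPs, against 854, 966 and 1048 FPKM in round RNPs, and all were assembled in all 6 libraries.

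Sertoli cells are the somatic cells that nurse the germ cells. The 27 Sertoli cell markers summed to 143.7, 120.8 and 98.3 FPKM in elongating RNPs, against 117, 2621 and 286 FPKM in round RNPs. The sum was about as high in round RNP 1 as in elongating RNPs and far higher in round RNP 2, where 1 marker was not assembled, compared with 10 to 15 in elongating RNPs and 12 and 15 in the other round RNPs. *Clu* (clusterin), a secreted chaperone of Sertoli cells, had 10.5, 10.5 and 8.66 FPKM in elongating RNPs, against 22.0, 842 and 49.2 FPKM in round RNPs. The 11 spermatogonia markers summed to 63.9, 65.5 and 47.7 FPKM in elongating RNPs, against 63.8, 196 and 77.0 FPKM in round RNPs, and the 8 Leydig cell markers to 13.6 to 34.7 FPKM in elongating RNPs against 31.0 to 54.5 FPKM in round RNPs. The part of other cells in the results below was not tested.

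**Figure D1:**
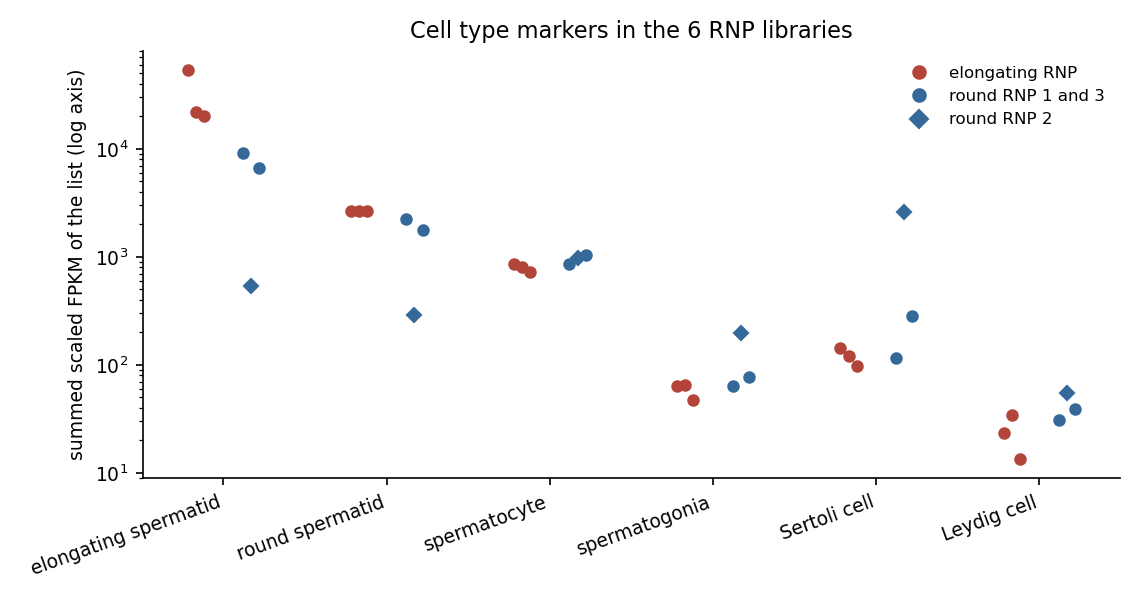
Summed scaled FPKM (log axis) of marker lists for 6 cell types in each RNP library, with elongating RNP libraries as red circles, round RNP libraries 1 and 3 as blue circles and round RNP 2 as a blue diamond. Round RNP 2 has the lowest sums of spermatid markers (537 and 293) and the highest sum of Sertoli cell markers (2621).

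Few genes passed the test between elongating and round RNPs. Of 14625 genes tested with limma, 50 were higher (0.342%) and 11 lower (0.0752%) in elongating RNPs at a Benjamini-Hochberg adjusted p under 0.05. At an unadjusted p under 0.05 the counts were 1039 higher and 625 lower. Without round RNP 2 the adjusted counts were 12 higher (0.0821%) and 5 lower (0.0342%), and 11 of the 50 and 2 of the 11 remained called. Other single libraries also moved these counts by more than 1.5 times. The counts were 17 higher and 5 lower without elongating RNP 1, 120 higher and 35 lower without round RNP 1, and 14 higher and 3 lower without round RNP 3. With factors and fit from the 6 RNP libraries alone they were 11 higher and 6 lower, a split nearer to even. In all 17 alternatives in which they were fitted, 2 called genes, *Tuba1c* and *AL645971.1*, stayed past the threshold. The median change of all genes was -0.03 on the log2 scale, and 0.00 without round RNP 2. Without scaling the FPKM it was -0.19, and changes are therefore given after scaling.

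Most of the called genes were assembled in the RNPs of 1 cell type and not in the RNPs of the other. Of the 50 higher genes, 32 were listed at 0 in all 3 round RNP libraries, and of the 11 lower genes, 9 were listed at 0 in all 3 elongating RNP libraries. A second count added single-exon fragments with at least 50% of their length in the gene's exons, on its strand or without a strand. By that count, 12 of these 32 had a fragment in at least 1 round RNP library and 20 had none. Of these 9, 2 had a fragment in an elongating RNP library and 7 had none. Fragments with less overlap, and spliced transcripts without an annotated junction, were not counted. Of the 50 higher genes, 34 were also listed at 0 in all 3 pachytene RNP libraries, so that part of the groups that set their spread held no value. In polysomes, 15 of the 32 were assembled in at least 1 round library and 7 of the 9 in at least 1 elongating library. For genes at 0 in a group no fold is given.

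Among 13 higher genes assembled in all 6 RNP libraries, *Lin52*, a subunit of the cell cycle complex that represses and activates mitotic genes, had the largest change. It had 628, 97.3 and 513 FPKM in elongating RNPs, against 8.85, 4.33 and 3.26 FPKM in round RNPs. The groups did not overlap, and the lowest elongating library was still above every round library. *Lin52* (chromosome 12, 85792458 to 85872483 on mm9, plus strand) rose by 5.71 ± 0.76 (log2, SE) with a limma adjusted p of 0.0021, and by 5.61 ± 0.87 with an adjusted p of 0.013 without round RNP 2. It lost the call in the fits on the 6 RNP libraries alone (highest adjusted p 0.19). With the second count, taken per length of the mRNA, its values were 31.8, 11.3 and 31.3 in elongating RNPs. They were 3.19, 3.70 and 2.87 in round RNPs, with a log2 change of 2.58.

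*Rnf138*, a ubiquitin ligase known from DNA double-strand break repair, had 346, 280 and 348 FPKM in elongating RNPs, against 56.5, 17.8 and 42.0 FPKM in round RNPs. The elongating libraries lay close together and well above all round libraries. The log2 change was 3.17 ± 0.45 (SE) with an adjusted p of 0.0039 in limma, and 2.70 ± 0.43 with an adjusted p of 0.015 without round RNP 2. *Rnf138* also lost the call in the fits on the 6 RNP libraries alone (highest adjusted p 0.19). *Plb1*, a membrane phospholipase, had 539.8, 122 and 367 FPKM in elongating RNPs, against 28.1, 16.3 and 7.01 FPKM in round RNPs. Its groups did not overlap, and its log2 change was 4.19 ± 0.78 with an adjusted p of 0.030 in limma, or 0.096 without round RNP 2.

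The other 10 were chosen for naming after their values were seen, as genes called and assembled in all 6 libraries. *Mical3*, which oxidises actin filaments, had 208, 173 and 171 FPKM in elongating RNPs, against 40.1, 10.5 and 29.0 FPKM in round RNPs. A second annotated *Mical3* entry, which was not called, had 3.23, 0 and 4.37 FPKM in elongating RNPs. It had 1.30, 13.8 and 6.04 FPKM in round RNPs, so its groups overlapped, with a log2 change of -1.13. *Atp1b3*, a beta subunit of the sodium pump, had 198, 168 and 169 FPKM in elongating RNPs, against 71.4, 40.7 and 49.9 FPKM in round RNPs. In the called *Mical3* entry and in *Atp1b3*, all elongating libraries lay above all round ones, with log2 changes of 2.93 ± 0.58 and 1.74 ± 0.36 (SE). *Asns*, asparagine synthetase, had 154, 134 and 58.4 FPKM in elongating RNPs, against 33.9, 18.4 and 15.6 FPKM in round RNPs. *Fam134b*, a receptor for autophagy of the endoplasmic reticulum, had 87.8, 68.2 and 42.3 FPKM in elongating RNPs, against 13.7, 4.22 and 7.67 FPKM in round RNPs. Round RNP 2 was the lowest round library in the called *Mical3* entry, *Atp1b3* and *Fam134b*, and round RNP 3 in *Asns*. The log2 changes of *Asns* and *Fam134b* were 2.27 ± 0.45 and 2.88 ± 0.50. The remaining 6 were *Dlgap4* (2.70), a scaffold protein, *Isg20l2* (2.32), an exonuclease of ribosome assembly, *Slc30a4* (2.14), a zinc transporter, *Nat9* (2.12), an acetyltransferase, *BC022687* (1.98) and *Ubr7* (1.70), a ubiquitin ligase of the N-degron family. All 10 lost the call without round RNP 2, with log2 changes of 1.48 to 2.51.

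**Figure D2:**
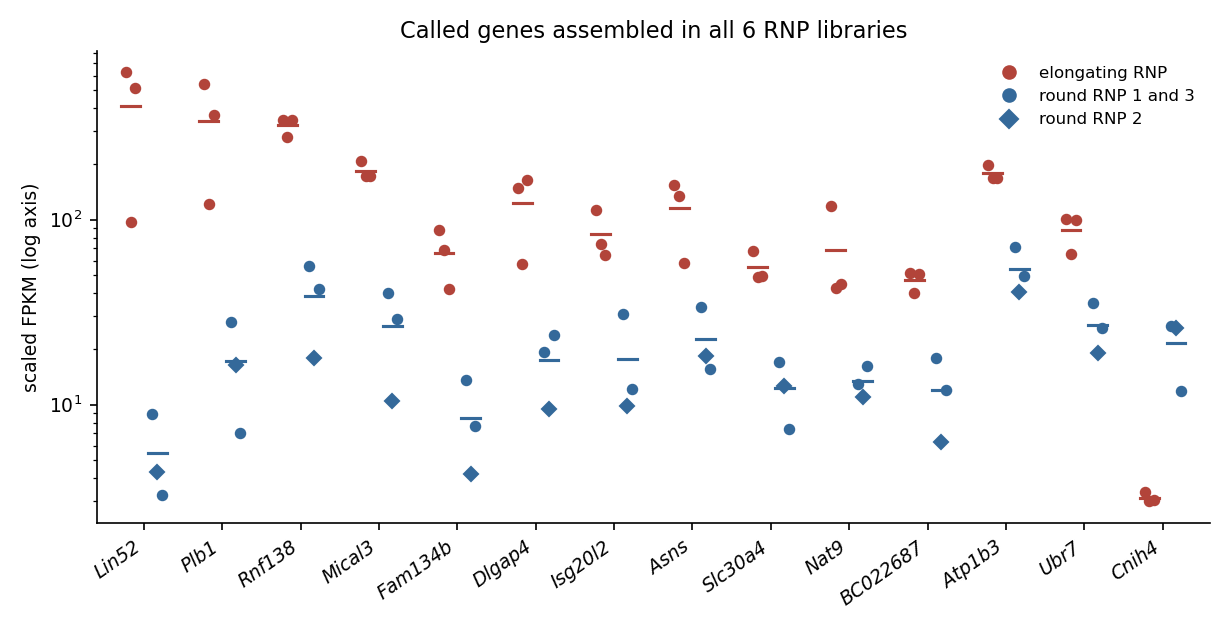
Scaled FPKM (log axis) of the 14 called genes assembled in all 6 RNP libraries, each with its elongating RNP libraries in red on the left and its round RNP libraries in blue on the right, round RNP 2 as a diamond and the group mean as a bar. In 13 genes every elongating library lies above every round library, and in *Cnih4* every elongating library (2.996 to 3.35) lies below every round library (11.8 to 26.7).

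Among the called genes that were missing from at least 1 round RNP library, *Tuba1c*, an alpha tubulin, had the lowest adjusted p. It had 24.0, 21.9 and 26.6 FPKM in elongating RNPs and was listed at 0 in all 3 round RNP libraries (limma adjusted p 1.09e-05). The second count gave it no fragment there either. The elongating polysomes had 16.0, 16.4 and 17.2 FPKM, and the round polysomes and pachytene RNPs were listed at 0. *Tuba1c* lies on chromosome 15 (98860322 to 98868536 on mm9, plus strand) and shares sequence with other alpha tubulin genes, so the authors' assembly could have split reads between them.

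*Colq*, the collagen tail that anchors acetylcholinesterase, had 24.3, 12.1 and 8.77 FPKM in elongating RNPs and was listed at 0 in round RNPs (adjusted p 0.00061). *Klk1*, a serine protease of a family of near-identical genes, had 10.8, 13.7 and 14.6 FPKM in elongating RNPs and was listed at 0 in round RNPs (adjusted p 0.0021), with an overlapping fragment in round RNP 1. Both kept their calls without round RNP 2, but leaving out a library at 0 could not alter their log2 change. *Colq* lost the call in the fits on the 6 RNP libraries (highest limma adjusted p 0.11) and *Klk1* with length-weighted values (0.052). *4933421O10Rik*, a lincRNA, had 32.1, 34.7 and 35.3 FPKM in elongating RNPs and 0 in round RNPs, and its call was lost without round RNP 2 (adjusted p 0.024 with it and 0.092 without it). *Gipr*, the receptor for an incretin hormone, had 50.2, 9.90 and 56.2 FPKM in elongating RNPs, against 2.15, 0 and 0 FPKM in round RNPs (adjusted p 0.031, or 0.13 and no longer called without round RNP 2). The other genes of this kind with the largest changes and at least 10 FPKM in elongating RNPs were *Gm14661*, *1700034H15Rik*, *B4galnt4*, a glycosyltransferase, *Gm16231*, *Gm11753*, *Pitpnm3*, a phosphatidylinositol transfer protein, *Gm13686* and *Gm13539*. Of these, only *Gm11753* kept its call without round RNP 2, and it lost the call in the fits on the 6 RNP libraries (highest limma adjusted p 0.18). *B4galnt4*, with 14.2, 49.1 and 3.75 FPKM in elongating RNPs, lost the call in 14 of 17 alternatives. *Myo3a*, an unconventional myosin, *Gria2*, a glutamate receptor subunit, *Rltpr* and *Slc22a12*, a urate transporter, were named after their values were seen because their calls held without round RNP 2. Their highest value in an elongating RNP library was 9.89 to 18.4 FPKM, except in *Myo3a* (7.42), and all were listed at 0 in round RNPs. Leaving out round RNP 2 therefore could not alter their log2 change, and the kept calls add no support. In the fits on the 6 RNP libraries alone, *Gria2*, *Slc22a12* and *Rltpr* lost the call (highest limma adjusted p 0.24, 0.18 and 0.13), and *Myo3a* in 1 of them (0.056). *Gria2* was also listed at 0 in pachytene RNPs and in elongating and round polysomes. Its elongating RNP libraries were enough for it to pass the filter.

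The lower genes were fewer and were led by RNAs that were not assembled in elongating RNPs. *Rbm7*, a subunit of the complex that feeds nuclear RNA to the exosome, was listed at 0 in elongating RNPs and had 28.7, 16.5 and 22.9 FPKM in round RNPs (adjusted p 0.016, or 0.051 and no longer called without round RNP 2). *Serpina5*, a serine protease inhibitor needed for male fertility in the mouse, was listed at 0 in elongating RNPs and had 3.85, 30.9 and 24.8 FPKM in round RNPs (adjusted p 0.044, or 0.22 and no longer called without round RNP 2). *Cnih4*, a cargo receptor of the secretory pathway, had 3.35, 2.996 and 3.04 FPKM in elongating RNPs, against 26.7, 26.0 and 11.8 FPKM in round RNPs. Its groups did not overlap, and it fell by 2.36 ± 0.49 (log2, SE) with a limma adjusted p of 0.046, or 0.22 without round RNP 2. Both other genes that the naming rule gave had 1 exon. *AL645971.1*, a misc_RNA, was listed at 0 in elongating RNPs and had 31.9, 42.5 and 79.7 FPKM in round RNPs (adjusted p 0.00037), and *Gm15529*, a pseudogene, was listed at 0 in elongating RNPs and had 2219, 440 and 1584 FPKM in round RNPs (adjusted p 0.030, or 0.074 and no longer called without round RNP 2).

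**Figure D3:**
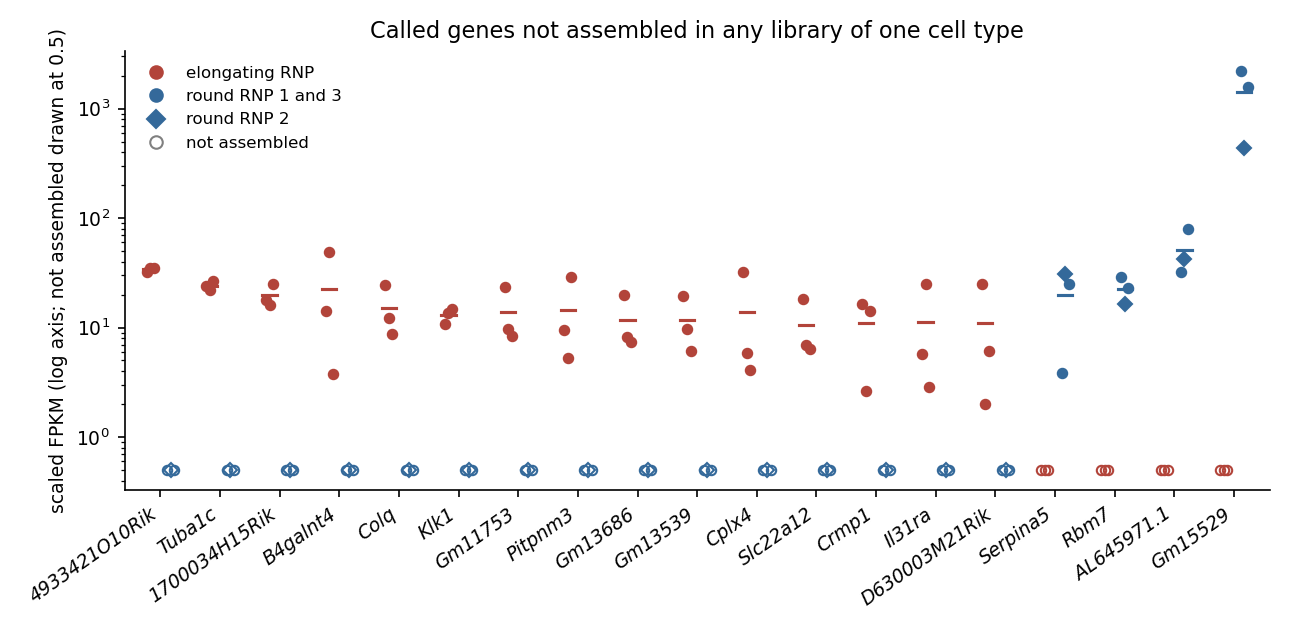
Scaled FPKM (log axis) of called genes with a group mean of at least 10 FPKM that were not assembled in any library of 1 cell type, elongating RNPs in red on the left and round RNPs in blue on the right, with open symbols at 0.5 for libraries listed at 0. *Tuba1c* has 21.9 to 26.6 FPKM in elongating RNPs and *Rbm7* 16.5 to 28.7 FPKM in round RNPs, each with 0 in all RNP libraries of the other cell type.

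The polysomes of the same cell types were compared in the same way. Their libraries entered the filter, the scaling and the spread behind the RNP calls, so their values describe the called genes and are not an independent check. The sources do not say whether an RNP and a polysome library came from the same cells. Round polysome 2 also stood apart in some genes, named here after their values were seen. In round polysomes *Tex101* had 78.8, 863 and 165 FPKM and *Fhl4* had 271, 17.7 and 119 FPKM. *Tuba3b* was more even, with 569, 588 and 659 FPKM. The polysome values below include round polysome 2. Of the 50 genes higher in elongating RNPs, 43 were also higher on average in elongating than in round polysomes and 4 were unchanged at 0. Of the 50, 16 were listed at 0 in all round RNP, pachytene RNP and round polysome libraries. The median polysome change of the 50 was 1.88 on the log2 scale, against -0.08 for all genes, and 12 of them were called higher in elongating polysomes, where 0.28% of all genes were called. Of the 11 lower genes, 8 were lower on average in elongating polysomes and none was called there. Over all genes tested, 46.3% were higher and 52.9% lower on average in elongating than in round polysomes. *Plb1* had 207, 42.7 and 149.7 FPKM in elongating polysomes, against 11.4, 4.06 and 12.1 FPKM in round polysomes. *Rbm7* had 18.9, 33.6 and 32.6 FPKM in elongating polysomes, against 26.2, 22.3 and 22.7 FPKM in round polysomes, so it was assembled in elongating polysomes while it was listed at 0 in elongating RNPs.

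The change in RNPs differed from the change in polysomes in 4 genes (0.0274% of genes tested, 412 at an unadjusted p under 0.05), which were *Lin52*, *Myo3a*, *Rltpr* and *AL645971.1*. *Lin52* had 0.968, 1.38 and 1.88 FPKM in elongating polysomes, against 2.06, 4.33 and 5.40 FPKM in round polysomes, a log2 change of -0.98 that was not past the test. Its RNP change exceeded its polysome change by 6.69 on the log2 scale (limma adjusted p 0.047). The other 3 genes were listed at 0 in all elongating and round polysome libraries, so for them this difference repeats the RNP change and adds no evidence. Without round RNP 2, or without round RNP 3, 0 genes passed this test in limma, and 0 to 2 passed without any 1 of the 6 polysome libraries.

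Genes of the sperm tail's fibrous sheath and outer dense fibres, the perinuclear theca and chromatin condensation were mostly higher in elongating RNPs. They did not pass the test over all genes. Counts of genes that lay higher in all 3 elongating than in all 3 round RNP libraries are read against 8.98% of all genes (1314), and counts of those lower in all 3 against 7.68% (1123). With round RNP 2 left out the shares of all genes were 11.4% (1667) higher and 12.2% (1780) lower. No list is called changed from these counts. The lists overlap in members and were chosen with earlier results of these data known.

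Protamines and transition proteins replace histones in the condensing nucleus. Of 16 nuclear condensation genes, 8 lay higher in all elongating RNP libraries and 2 lower, and the median change was 1.25 on the log2 scale, or 0.66 without round RNP 2. *Prm1* had 19609, 8062 and 6566 FPKM in elongating RNPs, against 2012, 51.7 and 1779.8 FPKM in round RNPs. *Tnp1* had 7042, 2081 and 1349 FPKM in elongating RNPs, against 829, 17.8 and 1138 FPKM in round RNPs. In both genes the groups did not overlap, elongating RNP 1 was the highest library and round RNP 2 the lowest. Their log2 changes were 4.14 ± 2.31 and 3.37 ± 1.77 (SE), with limma adjusted p of 0.52 and 0.50, and 2.42 and 1.48 without round RNP 2. *Tnp2* had 6388, 2478 and 1382 FPKM in elongating RNPs, against 1127, 16.2 and 643 FPKM in round RNPs. *Hist1h1t*, the linker histone of spermatocytes, had 11.1, 15.4 and 13.9 FPKM in elongating RNPs, against 16.3, 26890.4 and 32.6 FPKM in round RNPs, so a single library set its mean.

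The fibrous sheath and the outer dense fibres stiffen the sperm tail. All 20 genes of this list had a positive change, 14 of them with no overlap, and the median was 2.10, or 0.98 without round RNP 2. *Akap4*, the main scaffold of the fibrous sheath, had 1076, 619 and 803 FPKM in elongating RNPs, against 241, 1.93 and 106 FPKM in round RNPs. *Odf2*, of the outer dense fibres, had 1549, 1138 and 1276 FPKM in elongating RNPs, against 778, 184 and 531 FPKM in round RNPs. The groups were separate in both, and round RNP 2 was the lowest library in both. The log2 changes were 4.26 ± 1.46 and 1.63 ± 0.76 (SE) with limma adjusted p of 0.30 and 0.44. *Oaz3*, the testis antizyme of polyamine metabolism, had 851, 999 and 1092 FPKM in elongating RNPs, against 497, 7.17 and 201 FPKM in round RNPs.

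Of 13 genes of the perinuclear theca and actin-like proteins, 8 lay higher in all elongating RNP libraries and none lower, with a median of 1.86, or 1.26 without round RNP 2. *Actrt2*, an actin-related protein of the theca, had 294, 314 and 402 FPKM in elongating RNPs, against 166, 1.72 and 103 FPKM in round RNPs. *Capzb*, a subunit of the actin capping protein, had 98.6, 49.8 and 86.3 FPKM in elongating RNPs, against 39.9, 23.5 and 28.2 FPKM in round RNPs. Neither gene overlapped between the groups. Of 7 testis-specific serine kinases and their substrate, 3 were separate and higher, with a median of 1.83, or 1.57 without round RNP 2. *Tssk6*, needed for chromatin condensation in the mouse, had 273, 184 and 242 FPKM in elongating RNPs, against 81.5, 2.22 and 31.4 FPKM in round RNPs.

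Sperm make ATP with isoenzymes of glycolysis that are particular to germ cells. Of 23 genes of sperm glycolysis, 11 lay higher in all elongating RNP libraries and none lower, with a median of 1.05, or 0.65 without round RNP 2. *Pgk2*, the phosphoglycerate kinase of late germ cells, had 538, 351 and 415 FPKM in elongating RNPs, against 218, 15.5 and 135 FPKM in round RNPs. *Hk1*, the hexokinase, had 352, 263 and 374 FPKM in elongating RNPs, against 213, 12.3 and 111 FPKM in round RNPs. *Ldhc*, the lactate dehydrogenase of sperm, had 1737, 1601 and 1930.4 FPKM in elongating RNPs, against 1487, 253 and 1389.6 FPKM in round RNPs. In all 3 the groups were separate, and in *Ldhc* round RNP 1 lay close to the lowest elongating library.

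Several lists of spermatid structures had positive medians that came near 0 without round RNP 2. The median was 1.004 with all libraries and 0.12 without round RNP 2 for 28 genes of the acrosome and gamete fusion, and 0.89 and 0.14 for 28 axoneme genes. It was 0.57 and -0.03 for 21 sperm ion channels and motility signalling genes, and 0.57 and 0.00 for 15 genes of the mitochondrial sheath. For 23 genes of the manchette and intraflagellar transport it was 0.30 and -0.10, and for 26 transcription factors of spermatids it was 0.37 and 0.03. Genes separate and higher numbered 7, 5, 3, 3, 1 and 5 in these 6 lists in that order, and those separate and lower 0, 0, 2, 1, 1 and 3. The lower ones numbered, without round RNP 2, 3 in each list but the transcription factors, which had 4. *Crisp2*, of the acrosome, had 1452, 349 and 485 FPKM in elongating RNPs, against 308, 48.4 and 174 FPKM in round RNPs, while *Dkkl1* had 455, 636 and 498 FPKM in elongating RNPs, against 512, 121 and 649 FPKM in round RNPs. *Gpx4*, whose protein hardens the mitochondrial sheath, had 1938, 1894 and 1963 FPKM in elongating RNPs, against 1101, 191 and 727 FPKM in round RNPs. The first and the last of these had separate groups, and *Dkkl1* did not.

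**Figure D4:**
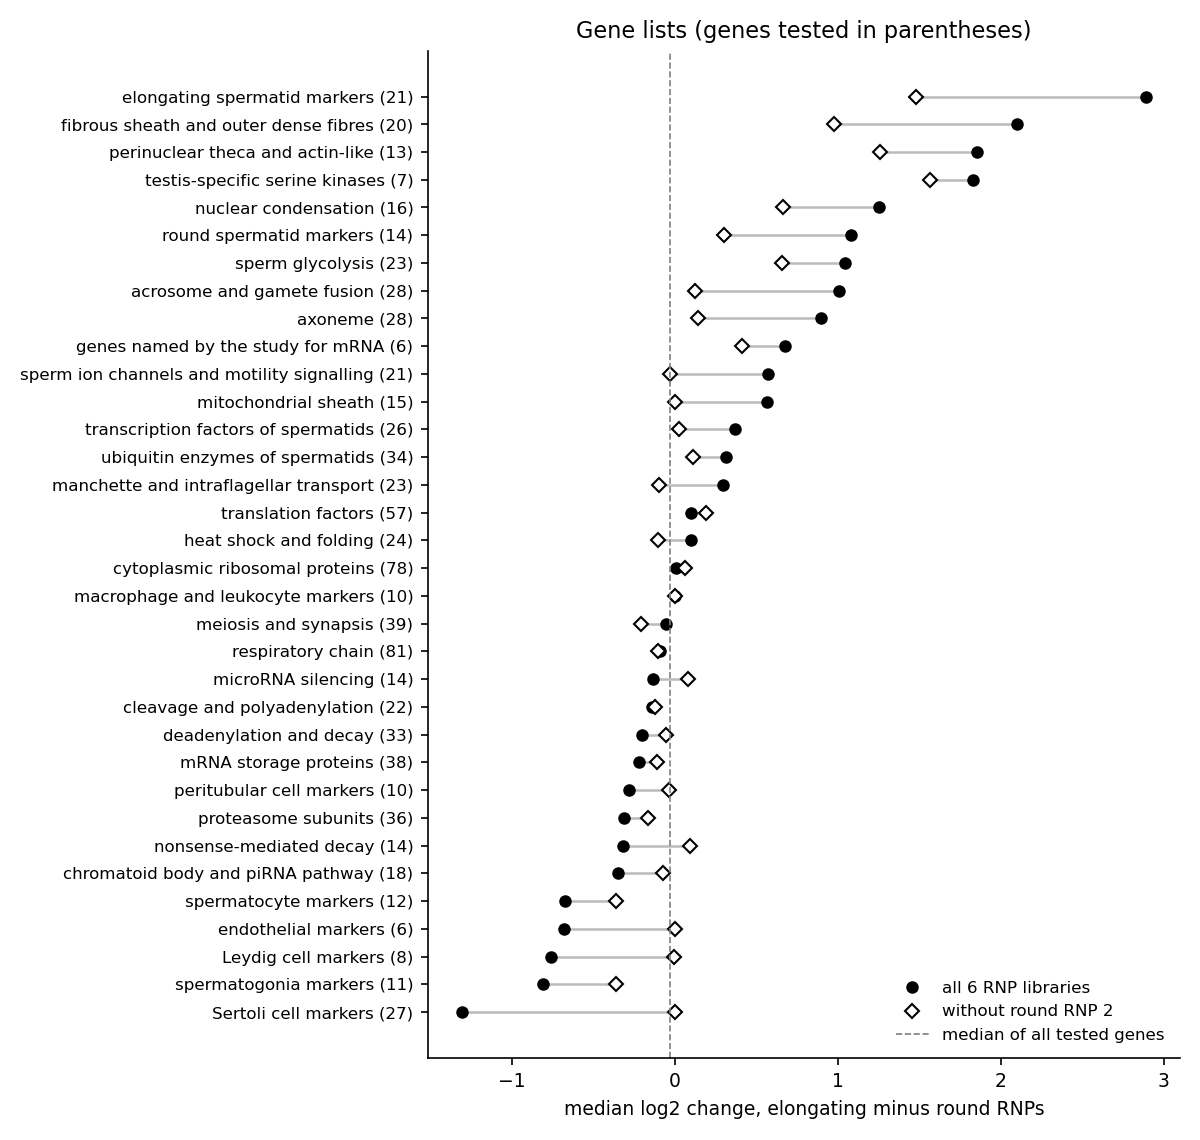
Median log2 change, elongating minus round RNPs, of each gene list with at least 6 tested genes, with all 6 RNP libraries (filled circles) and without round RNP 2 (open diamonds), and the median of all tested genes as a dashed line. The 4 lists with the largest medians (1.83 to 2.89) stay at 0.98 to 1.57 without round RNP 2, and the Sertoli cell markers are at -1.31 with it and 0.00 without it.

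Of the cell type markers, 19 of 21 for elongating spermatids lay higher in all elongating RNP libraries, with a median of 2.89, or 1.48 without round RNP 2. Of 14 round spermatid markers 5 lay higher and none lower, or 5 and 2 without round RNP 2, with a median of 1.08, or 0.30 without round RNP 2. The medians with and without round RNP 2 were -0.68 and -0.36 for spermatocyte markers, -0.81 and -0.36 for spermatogonia markers, -1.31 and 0.00 for Sertoli cell markers and -0.76 and -0.01 for Leydig cell markers. They were -0.28 and -0.04 for peritubular cell markers, 0.00 and 0.00 for macrophage and leukocyte markers, -0.68 and 0.00 for endothelial markers, and 0.43 and 0.44 for the 2 erythroid markers that could be tested.

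Lists of genes that handle mRNA had medians of -0.35 to -0.14, against -0.03 for all genes, over members that went both ways. Of 38 mRNA storage proteins 3 lay higher in all elongating RNP libraries and 2 lower, or 3 and 5 without round RNP 2, with a median of -0.22, or -0.11 without round RNP 2. *Ybx2* had 328, 262 and 361 FPKM in elongating RNPs, against 266, 76.3 and 245 FPKM in round RNPs, and the groups overlapped. *Fxr1*, an RNA-binding protein of spermatids, had 425, 309 and 295 FPKM in elongating RNPs, against 232, 47.2 and 161 FPKM in round RNPs, with no overlap and a log2 change of 1.47 ± 0.59 (SE, limma adjusted p 0.38). The medians with and without round RNP 2 were -0.35 and -0.07 for 18 genes of the chromatoid body and piRNA pathway, -0.14 and 0.08 for 14 genes of microRNA silencing, and -0.20 and -0.06 for 33 genes of deadenylation and decay. They were -0.32 and 0.09 for 14 genes of nonsense-mediated decay and -0.14 and -0.13 for 22 genes of cleavage and polyadenylation. None of these genes was called.

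Among housekeeping groups, 78 cytoplasmic ribosomal protein genes had a median of 0.01 and 81 respiratory chain genes a median of -0.09, or 0.06 and -0.10 without round RNP 2. Of the ribosomal protein genes 2 were separate and higher and 6 lower, or 3 and 8 without round RNP 2, and of the respiratory chain genes 6 were higher and 9 lower, or 6 and 17. The median was 0.10 for 57 translation factors, or 0.19 without round RNP 2 and -0.10 without scaling. It was 0.10 for 24 heat shock and folding genes, or -0.11 without round RNP 2. Ribosomal protein genes have many near-identical pseudogenes, so their values are uncertain. Of 36 proteasome subunits, 28 had a negative change, 7 of them with no overlap, and the median was -0.31, or -0.17 without round RNP 2. *Eef1d*, a subunit of elongation factor 1, had 449.98, 289 and 390 FPKM in elongating RNPs, against 165, 54.7 and 95.2 FPKM in round RNPs, and its groups were separate. The 39 genes of meiosis and synapsis had a median of -0.06, or -0.21 without round RNP 2.

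Ubiquitin enzymes rework the spermatid during elongation, and the list of 34 held the only called member of any list, *Rnf138*. Of the 34, 10 lay higher in all elongating RNP libraries and none lower, or 10 and 4 without round RNP 2, with a median of 0.31, or 0.11 without round RNP 2. *Ube2j1*, a conjugating enzyme of the endoplasmic reticulum needed for spermatid shaping in the mouse, had 99.4, 127 and 102 FPKM in elongating RNPs, against 54.4, 9.84 and 31.3 FPKM in round RNPs. *Ube2b*, needed for sperm formation in the mouse, had 136, 1699 and 112 FPKM in elongating RNPs, against 23.6, 69.3 and 62.8 FPKM in round RNPs. The groups were separate in both genes, and the mean of *Ube2b* rests on elongating RNP 2. Their log2 changes were 2.03 ± 0.53 and 2.63 ± 0.86 (SE), with limma adjusted p of 0.14 and 0.27.

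A list of 6 genes was taken from those the study named for their mRNA, and the study named others too. It used *Tnp2* and *Clu* as genes whose translation timing was known. *Cebpg*, *Eif4h*, *Ubp1* and *Hip1* were its examples, from these samples, of genes with longer and shorter 3′ UTR isoforms. *Eif4h*, a cofactor of the helicase that unwinds mRNA for translation, had 85.4, 140.0 and 143 FPKM in elongating RNPs, against 29.2, 53.2 and 22.0 FPKM in round RNPs. The groups were separate, with a log2 change of 1.85 ± 0.41 (SE) and an adjusted p of 0.073 in limma. *Ubp1*, a transcription factor, had 33.3, 28.6 and 44.8 FPKM in elongating RNPs, against 16.9, 9.49 and 15.8 FPKM in round RNPs, also separate. *Cebpg*, a bZIP transcription factor, and *Hip1*, a clathrin adaptor, overlapped between the groups, with changes of 0.06 and -0.88. Over the 6 genes, *Tnp2* and *Clu* included, the median was 0.68, or 0.41 without round RNP 2. These gene values sum over isoforms, so they do not address the study's comparison of longer and shorter 3′ UTR isoforms.

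Isoforms were compared as transcripts with the same intron chain. Of 35881 such transcripts, 129 were higher (0.36%) and 19 lower (0.053%) in elongating RNPs in limma, and 94 were higher and 77 lower without round RNP 2. Of the 129, 125 were not assembled in any round RNP library, and all 19 lower ones were not assembled in any elongating RNP library. An annotated intron chain was found in 15 of the 129 and 3 of the 19. Other single libraries also moved the counts by more than 1.5 times. They were 210 higher without elongating RNP 1, 345 higher without elongating RNP 2 and 325 higher without elongating RNP 3, 46 lower without round RNP 1, and 81 higher and 32 lower without round RNP 3.

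The 3′ UTR of an mRNA carries sites for microRNAs and RNA-binding proteins, and its length was the subject of the study. The FPKM-weighted geometric mean of the annotated 3′ UTR length was 221, 267 and 285 nt in elongating RNPs, against 303, 429.6 and 305 nt in round RNPs. All elongating libraries lay below all round libraries. The mean over libraries was 256 nt in elongating RNPs and 341 nt in round RNPs, a log2 difference of -0.41. The exact permutation test (two-sided) gave p = 0.1, the smallest that 3 libraries against 3 allow. Without round RNP 2 the difference was -0.25 and the exact p 0.2, the smallest for 3 against 2. Without the 10 genes with the highest FPKM, *Prm1*, *Tnp1* and *Tnp2* among them, it was -0.35. With assembled instead of annotated 3′ ends, it was -0.34 and the groups overlapped. With every assembled mRNA counted alike, without FPKM weights, the length was 567 nt in elongating RNPs and 642 nt in round RNPs, a difference of -0.18, or -0.07 without round RNP 2.

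Annotated mRNAs whose groups did not overlap were counted by 3′ UTR length, with no test of the spread. Of 10166 annotated mRNAs tested, 491 (4.83%) lay higher in all 3 elongating RNP libraries and 618 (6.08%) lower. In the quartile with the shortest 3′ UTRs (1 to 284 nt) 8.58% lay higher and 4.52% lower, and in the quartile with the longest (1715 to 13394 nt) 3.58% lay higher and 6.61% lower. Without round RNP 2 the shares in the shortest quartile were 9.17% higher and 10.1% lower, and in the longest 4.60% and 11.7%. The median 3′ UTR was 370.0 nt for the 491, 948.5 nt for the 618 and 782 nt for all.

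**Figure D5:**
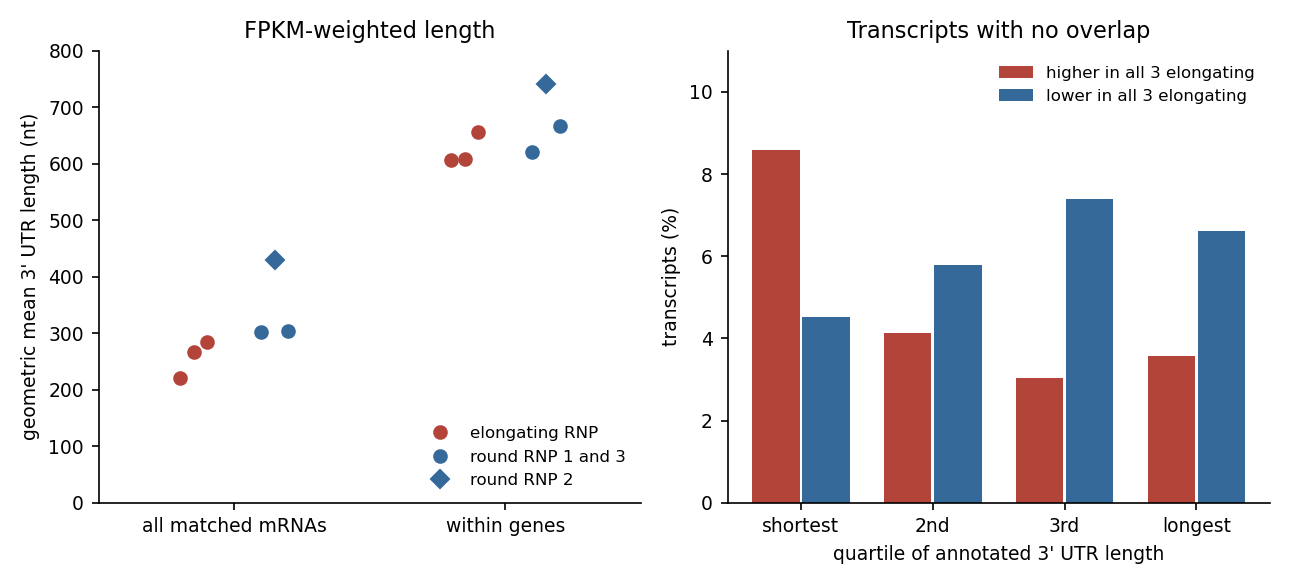
Left, FPKM-weighted geometric mean 3′ UTR length (nt) in each RNP library over all matched mRNAs and within genes with several 3′ UTRs, elongating RNPs in red and round RNPs in blue with round RNP 2 as a diamond. Right, percent of annotated mRNAs in each quartile of 3′ UTR length that lay higher (red) or lower (blue) in all 3 elongating than in all 3 round RNP libraries, 8.58% and 4.52% in the shortest quartile and 3.58% and 6.61% in the longest.

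Within 136 genes that had at least 2 isoforms with different 3′ UTRs, the mean length was 607, 609 and 656 nt in elongating RNPs, against 620.3, 741 and 667 nt in round RNPs. The groups overlapped, and the log2 difference of -0.11 had an exact permutation p of 0.2, or was -0.04 without round RNP 2. Each intron chain was given its longest annotated 3′ UTR. Isoforms with the same introns and different 3′ ends were therefore not told apart, and shortening of that kind was not measured. With assembled 3′ ends the difference was -0.34, and the groups overlapped. The length was shorter in elongating RNPs in 77 genes and longer in 52, with no overlap in 14 and 6. *Kpna6*, a nuclear import receptor, had 659, 508 and 508 nt in elongating RNPs, against 1911, 4012 and 4012 nt in round RNPs, the largest shortening. *Tmbim6*, an inhibitor of cell death in the endoplasmic reticulum, had 1551, 1551 and 633 nt in elongating RNPs, against 126, 124 and 68.9 nt in round RNPs, the largest lengthening. Both genes were named after their values were seen.

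The Y-box, the letters CTGATTGG searched on both strands, is the promoter motif after which Y-box proteins are named, and in the mouse testis it has been linked to storage of the mRNA made. It was counted in RefSeq promoters of GRCm38.p6, from 250 bases before to 50 bases after the start of a gene. It was found in 45 of 867 matched genes (5.19%) that lay higher in all elongating RNP libraries and in 69 of 804 (8.58%) that lay lower, against 6.42% of 10090 matched tested genes and 4.70% of 27025 genes in the table. Without round RNP 2 the shares were 4.98% and 8.79%. A match is a description of letters and not a bound site. The windows shown, chosen after values were seen, are from highly expressed genes of both sets and from 1 called gene, each with its motif before the start. They are shown to set the motif in its context, with the Y-box in capitals, 5′ to 3′ on the strand of the motif.
*Pebp1* (higher, chr5:117287515-117287814, minus strand): cccttcgctctCTGATTGGctgagccggag
*Tuba3b* (higher, chr6:145615713-145616012, plus strand): ggtggtactttCTGATTGGatgtaaatttg
*Fhl4* (higher, chr10:85102446-85102745, minus strand): cctcgcctgctCTGATTGGgtggccggggc
*Tex101* (lower, chr7:24672001-24672300, minus strand): cattgcatggcCTGATTGGtcgagtttgga
*4930579G24Rik* (called lower, chr3:79628829-79629128, plus strand): tggcttgatatCTGATTGGctgtctggaaa
The coordinates are those of the promoters, the named strand is that of the gene, and all motifs but that of *4930579G24Rik* lie on the opposite strand.

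*Tex101*, a surface protein of germ cells, had 48.7, 50.5 and 43.8 FPKM in elongating RNPs, against 59.4, 606 and 177 FPKM in round RNPs. *Pebp1*, a phosphatidylethanolamine-binding protein, had 735, 647 and 711 FPKM in elongating RNPs, against 574, 185 and 450.2 FPKM in round RNPs. *Fhl4*, a LIM protein of the testis, had 606, 673 and 649 FPKM in elongating RNPs, against 422, 69.9 and 311 FPKM in round RNPs. All 3 had separate groups by the way they were chosen, and none was called.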

How the data were processed

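Stranded total RNA libraries of wild-type mice were read, per the labels and methods, aligned to mm9 with TopHat and assembled library by library with Cufflinks. The authors deposited the FPKM of each assembled transcript, written inside a text attribute, with no scaling between libraries and no counts. Spliced transcripts were matched to GENCODE vM1 by strand and shared junctions, single-exon transcripts only to genes with 1 exon (overlap of at least 50%), and FPKM were summed per gene. Libraries were scaled by median ratios over 7031 genes. Genes that reached 1 FPKM in 3 or more of the 18 libraries were tested as log2(scaled FPKM + 1) with limma 3.58.1 in R 4.3.3 (trend, 6 groups, Benjamini-Hochberg), a scale that understates changes of low genes. Python 3.11.15 with numpy 2.4.6, pandas 2.3.3, scipy 1.17.1 and matplotlib served for the rest. On simulated data for this comparison (14625 genes, 50 changed per fold), 0 were called at 2-fold, 7 at 4-fold, 25 at 8-fold and 34 at 16-fold, with 8 false calls. The changed genes were drawn only from better expressed ones, with normal noise and no library set apart, so fewer may be found in the real data.

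Genes were named by rule. The rule took up to 15 called genes per direction with the largest change, at least 10 FPKM and no overlap. It also took genes that differed from polysomes, up to 6 highest members of each of 35 lists, and 6 genes the study named. Others are named as chosen later. The members and lists were chosen with earlier results of these data known. Alternatives were other filters, pseudocounts, scalings, fits, weights, gene values and left-out libraries.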

Additional observations from a re-analysis of the deposited data

Results flagged for a closer look

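In 4 genes the change from round to elongating spermatids differed between RNPs and polysomes by limma's test of the difference. The RNP change minus the polysome change was 6.69 for *Lin52*, 3.01 for *Rltpr*, 2.74 for *Myo3a* and -5.61 for *AL645971.1* on the log2 scale, each with an adjusted p of 0.047. *Rltpr* and *Myo3a* were listed at 0 in round RNPs and *AL645971.1* in elongating RNPs, and all 3 in both groups of polysomes, so their values depend on the pseudocount, bound no fold and repeat the RNP change. Their elongating or round RNP libraries alone set the difference. *Rltpr* and *Myo3a* were also listed at 0 in pachytene RNPs, so groups without values entered the spread of their test. The 3 elongating RNP libraries were enough for these 2 genes to pass the filter. *Rltpr* had 9.89, 8.50 and 4.04 FPKM and *Myo3a* 7.42, 5.22 and 4.75 FPKM in elongating RNPs. Groups of 3 libraries were not tested for outliers.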

How the results depend on the processing

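The 50 genes higher in elongating RNPs and the 11 genes lower in elongating RNPs numbered 13 and 6 at an FPKM of at least 5, 10 and 2 with FPKM as deposited, 27 and 5 with quantile normalization, 14 and 7 in a fit on the 6 RNP libraries, 11 and 6 with factors from them too, 103 and 9 with length-weighted values, and 44 and 18 with a pseudocount of 0.1. They were 16 and 5 without both round libraries numbered 2, and 25 and 50 in a fit on the RNP libraries without round RNP 2, chosen after seeing the data. Array weights, which did not converge, gave 976 and 933, and 1328 genes that differed from polysomes. That last count was 7 with no filter, 1 with FPKM as deposited, and 0 at an FPKM of at least 5 or with quantile normalization. Leaving out 1 library gave 12 to 120 higher, 3 to 35 lower and 0 to 6 different from polysomes. Transcripts higher and lower numbered 76 and 11 with FPKM as deposited, 47 and 10 in the fit on 6 libraries, 85 and 64 without both round libraries numbered 2, and 81 to 345 and 17 to 77 with 1 library left out. Within genes, the 3′ UTR difference was -0.34 with assembled ends. Leaving out 1 library gave -0.25 to -0.50 for all mRNAs and -0.04 to -0.17 within genes. The cause of these shifts was not tested.

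Elongating and round RNP libraries with the same number were not treated as pairs. Their deviations from the group means had correlations of -0.003, 0.018 and -0.054. RNP and polysome libraries with the same number were not compared in this way. With a replicate block, 180 genes were higher and 25 lower, 0 differed from polysomes, and 121 transcripts were higher and 16 lower. No called gene that is named changed sign under any alternative run. Of 35 list medians, 12 changed sign in at least 1 alternative, 5 of them without round RNP 2 (manchette, ion channels, heat shock, nonsense-mediated decay and microRNA silencing) and 3 with FPKM as deposited.

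Without counts, depth is unknown and no counting error can be given. A gene at 0 was not assembled, which low depth can also give. With 3 libraries a group, changes of 2-fold and 4-fold were mostly not called on simulated data, and 25 of 50 were called at 8-fold. Genes that miss the threshold are therefore not shown to be equal.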

Other observations

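Processed transcripts, noncoding genes without a named class, had a median change of 0.92 on the log2 scale over 434 tested genes, or 0.28 without round RNP 2. With round RNP 2 included, 74 were separate and higher and 3 separate and lower in elongating RNPs. Over all genes these shares were 8.98% and 7.68%. Of the 434, 6 were called higher and 1 lower, against 0.342% and 0.0752% of all genes. Over 254 lincRNAs the median was 0.24, or 0.00 without round RNP 2, and 1 was called. Over 13744 protein-coding genes it was -0.07, or 0.00 without round RNP 2, with 43 called higher and 8 lower.

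Without round RNP 2, 4 genes were called that were not called with all libraries. *H2-Eb1*, a class II antigen chain, had 4.83, 16.9 and 4.85 FPKM in elongating RNPs, against 0, 9.70 and 0 FPKM in round RNPs. *Spata2L* and *4930555J06Rik* were listed at 0 in elongating RNPs and had 5.63 and 13.6 FPKM in round RNP 1 and 5.18 and 7.28 FPKM in round RNP 3. *Speer7-ps1* was listed at 0 in elongating RNPs and had 158, 0 and 1525 FPKM in round RNPs.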
